A study of Mus musculus with 9 samples.

Results

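Expression of 9 genes of the dopamine neuron was examined in the midbrain of mice lacking DJ-1, and the members were chosen by name for their part in dopamine synthesis, storage, uptake and reception or for marking these cells: Th, Ddc, Gch1, Slc18a2, Slc6a3, Drd2, Chrna6, Chrnb3 and Dlk1. All 9 were found among the 26602 genes with a count, and all 9 were among the 18127 tested, those with 10 or more counts when the libraries were summed. DJ-1 is the product of Park7, a gene whose loss causes an inherited, early form of Parkinson's disease. RNA came from midbrain tissue including the substantia nigra of 4 wild-type mice (DJ-1+/+) and 5 mice without a functional Park7 gene (DJ-1-/-), all 3 to 4 months of age, with no treatment. The germline knockout line had been backcrossed to C57BL/6 and both genotypes came from heterozygous breeding. Each mouse gave 1 library of 3′ mRNA-seq with unique molecular identifiers, which tag single molecules so that copies made by PCR are counted once. Mice are numbered here as in the sample labels.

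Dopamine is made from tyrosine by tyrosine hydroxylase (Th), the rate-limiting enzyme, and aromatic amino acid decarboxylase (Ddc), and Th needs the cofactor tetrahydrobiopterin, whose synthesis starts with GTP cyclohydrolase (Gch1). The vesicular transporter VMAT2 (Slc18a2) loads dopamine into vesicles, and the plasma membrane transporter DAT (Slc6a3) takes it back up after release. Ddc, Gch1 and Slc18a2 also serve serotonergic neurons, and these together with Th serve noradrenergic neurons, whereas Slc6a3 is the most restricted to dopamine neurons. In whole tissue, fewer cells of a type and less RNA per cell cannot be told apart.

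The DJ-1+/+ libraries held 841974 to 886085 counts and the DJ-1-/- libraries 967751 to 1098125, so that every DJ-1-/- library was the deeper one, and values are given as counts per 1000000 (cpm). At this depth 3 counts, taken as the floor, were worth 2.73 to 3.56 cpm, which covers counting error only. Park7 had 105 to 132 counts in the DJ-1+/+ and 14 to 29 in the DJ-1-/- libraries (log2 fold change −2.71, standard error 0.15, adjusted p = 7.39e-08 by the quasi-likelihood test of edgeR), which matched the genotype labels. Xist, the RNA of the inactive X chromosome, had 146 to 193 counts in DJ-1+/+ mice 2 and 3 and DJ-1-/- mice 1 to 4, and 0 to 2 counts in DJ-1+/+ mice 1 and 4 and DJ-1-/- mouse 5, so sex was not balanced over the genotypes. The most abundant gene of a library held only 0.107% to 0.142% of its counts, and Gapdh, normally among the most abundant transcripts, had 103 to 141 counts. Levels were therefore not compared between genes, and ratios of 1 gene to another are compared between libraries only. The cause of this flat range, and whether it also compressed differences between libraries, was not tested, so the fold changes hold for the counts as deposited.

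The promoters of 4 members are printed, from 2 of the 7 pairs that varied together over the libraries, Th with Slc6a3 and Slc18a2 with Gch1. The pairs are described further on, and Th also varied with Dlk1 and Slc6a3 with Chrna6. RefSeq (GRCm38.p6) windows from 250 bases before to 50 bases after the transcript start were matched by symbol to 7 of the 9 members, and not to Chrna6 and Chrnb3. These starts can differ from the ends of the GENCODE M21 gene spans given further on. The Th window lies inside its span, whose 5′ end is at 142931128. The Drd2 window ends at 49340452, before its span starts at 49340627. Sequences run 5′ to 3′ on the gene's strand, and capitals mark the cyclic AMP response element TGACGTCA and the GC box GGGCGG, the latter on either strand (as CCGCCC on the other). The windows are Th at chr7:142899946-142900245 (minus strand), Slc6a3 at chr13:73536497-73536796 (plus), Slc18a2 at chr19:59260628-59260927 (plus) and Gch1 at chr14:47189364-47189663 (minus).
Th: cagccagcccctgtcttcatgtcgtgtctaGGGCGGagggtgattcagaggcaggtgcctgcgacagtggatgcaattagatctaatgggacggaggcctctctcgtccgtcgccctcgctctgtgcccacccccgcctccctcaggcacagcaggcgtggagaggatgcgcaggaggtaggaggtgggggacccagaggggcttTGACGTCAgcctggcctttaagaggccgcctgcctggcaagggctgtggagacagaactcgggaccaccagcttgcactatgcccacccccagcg
Slc6a3: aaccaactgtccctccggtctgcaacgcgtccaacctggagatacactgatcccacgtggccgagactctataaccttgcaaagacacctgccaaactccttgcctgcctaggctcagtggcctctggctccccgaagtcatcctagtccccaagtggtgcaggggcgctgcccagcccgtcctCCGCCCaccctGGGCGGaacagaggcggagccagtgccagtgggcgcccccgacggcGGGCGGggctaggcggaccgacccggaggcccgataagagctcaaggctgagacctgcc
Slc18a2: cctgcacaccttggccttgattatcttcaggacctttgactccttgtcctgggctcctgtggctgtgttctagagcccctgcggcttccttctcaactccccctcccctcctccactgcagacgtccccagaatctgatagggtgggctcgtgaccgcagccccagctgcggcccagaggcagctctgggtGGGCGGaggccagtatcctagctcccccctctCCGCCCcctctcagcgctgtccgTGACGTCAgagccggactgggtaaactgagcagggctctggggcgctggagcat
Gch1: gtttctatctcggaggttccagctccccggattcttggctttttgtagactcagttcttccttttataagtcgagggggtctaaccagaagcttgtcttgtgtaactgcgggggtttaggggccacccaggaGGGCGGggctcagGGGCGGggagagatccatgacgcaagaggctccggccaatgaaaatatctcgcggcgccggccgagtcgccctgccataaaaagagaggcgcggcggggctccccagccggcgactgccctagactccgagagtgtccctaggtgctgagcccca

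Th and Slc18a2 each held 1 response element, its first base 45 and 4 bases before the transcript start (positions −45 and −4), and this element was found in 1.79% of the 32851 windows searched. The GC box was found in Th, Slc6a3, Slc18a2, Gch1 and Drd2, with 3 copies in Slc6a3, and in 35.7% of all windows. Slc6a3 and Gch1, their partners in the pairs printed, did not hold the response element. The element AAAGGTCA, named NBRE and bound by orphan nuclear receptors such as Nr4a2, was present on the reverse strand in 1 of the 2 windows of Ddc and in 1.51% of all windows. The element TAATCC, bound by bicoid-type homeodomain factors such as Pitx3, was in none of the 8 member windows and in 7.06% of all windows. The 4 motifs were searched on both strands and do not overlap each other in the printed windows. A match describes the letters of the window only.

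Among the synthesis genes, Th (ENSMUSG00000000214, chr7:142892752-142931128, minus strand, positions from GENCODE M21 on GRCm38) had 66.5, 114, 43.0 and 33.9 cpm in DJ-1+/+ mice 1 to 4 and 80.1, 108, 110, 115 and 78.0 cpm in DJ-1-/- mice 1 to 5. All but 1 of the DJ-1+/+ libraries lay below every DJ-1-/- library, and DJ-1+/+ mouse 2 lay near the highest of them, so the groups overlapped. The means were 64.3 ± 35.7 cpm (SD, n = 4) and 98.3 ± 17.8 cpm (SD, n = 5). The DJ-1-/- to DJ-1+/+ ratio was 1.53 with a 95% interval of 1.07 to 2.18 (log2 fold change 0.61, standard error 0.24, edgeR unadjusted p = 0.0225). Comparing the means over all splits of the mice gave a two-sided exact permutation p = 0.0952, where the smallest p that 4 against 5 mice allow is 0.0159. After adjustment over all genes tested, the p of edgeR was 0.99997 for each of the 9 members, so none passed the test in the 9 libraries.

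Ddc (ENSMUSG00000020182, chr11:11814101-11898144, minus strand) had 131, 173, 120 and 108 cpm in the DJ-1+/+ and 156, 170, 135, 204 and 141 cpm in the DJ-1-/- libraries. As for Th, DJ-1+/+ mouse 2 alone reached into the DJ-1-/- range. The log2 fold change was 0.28 (standard error 0.13, 95% interval −0.0010 to 0.56), and the unadjusted p of edgeR was 0.0508. The antisense gene 1700042O10Rik overlaps Ddc and had 8 counts over all libraries.

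Gch1 (ENSMUSG00000037580, chr14:47153895-47189413, minus strand) had 32.1, 34.1, 37.2 and 6.77 cpm in the DJ-1+/+ libraries. In the DJ-1-/- libraries it had 52.0, 41.0, 35.1, 43.4 and 13.6 cpm. The lowest library of each genotype, DJ-1+/+ mouse 4 with 6 counts and DJ-1-/- mouse 5 with 14, stood well below the others of its group. The log2 fold change was 0.43 (standard error 0.37, 95% interval −0.35 to 1.21), and without DJ-1+/+ mouse 4 it was 0.10.

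**Figure D1:**
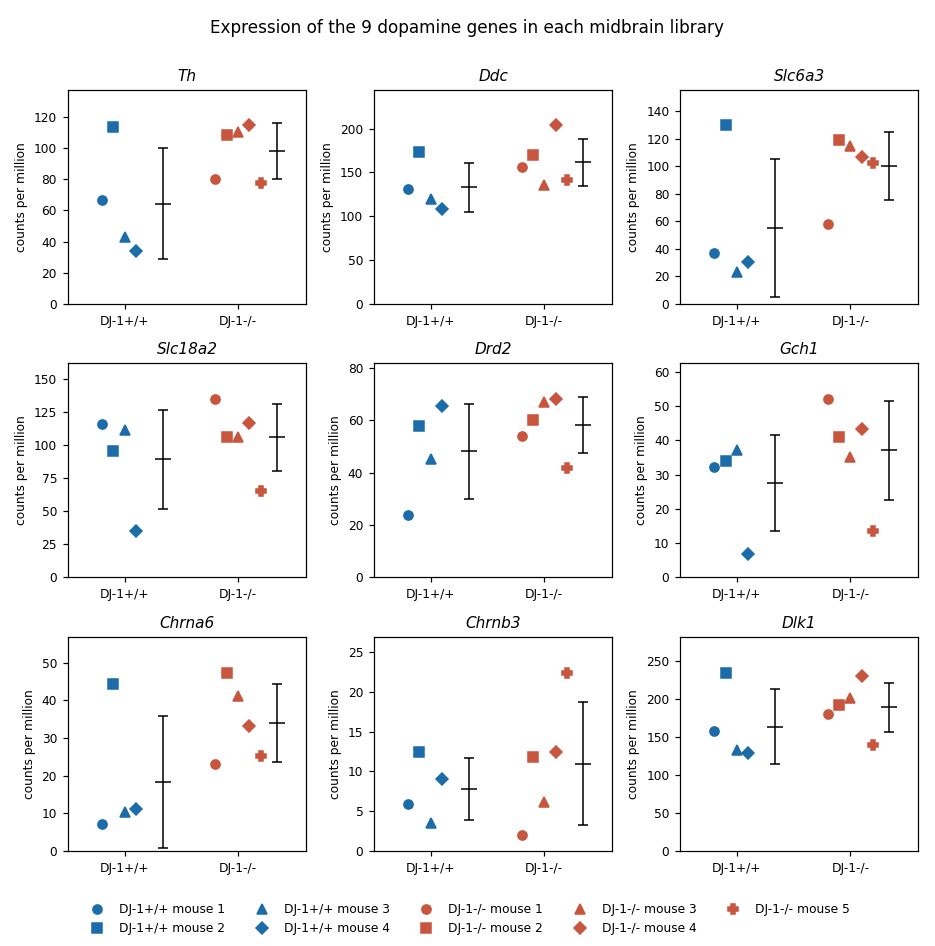
Cpm (vertical axis, from 0, its own scale in each panel) of the 9 genes in the 4 DJ-1+/+ and 5 DJ-1-/- libraries, 1 symbol per mouse, with the mean and SD of each genotype as a bar. For Th, Ddc, Slc6a3 and Chrna6 only DJ-1+/+ mouse 2 (blue square) lies within or above the DJ-1-/- points, and for Slc18a2 and Gch1 DJ-1+/+ mouse 4 and DJ-1-/- mouse 5 are the lowest.

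Of the transporters, Slc6a3 (ENSMUSG00000021609, chr13:73536747-73578672, plus strand) had 36.8, 130, 23.3 and 30.5 cpm in the DJ-1+/+ libraries and 58.1, 119, 115, 106 and 102 cpm in the DJ-1-/- libraries. DJ-1+/+ mouse 2 had the highest value of all 9 mice and the other DJ-1+/+ mice the 3 lowest, so the DJ-1+/+ SD (49.99 cpm) was nearly as large as the mean (55.0 cpm). The ratio of DJ-1-/- to DJ-1+/+ was 1.81 with a 95% interval of 1.08 to 3.04 (log2 fold change 0.86, standard error 0.35, edgeR unadjusted p = 0.0262, exact permutation p = 0.127). Without DJ-1+/+ mouse 2 the log2 fold change was 1.72 with an edgeR adjusted p = 0.0205, which made Slc6a3 the sole member to pass the test on leaving out any 1 library.

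Slc18a2 (ENSMUSG00000025094, chr19:59260896-59296012, plus strand) had 116, 95.5, 112 and 35.0 cpm in the DJ-1+/+ libraries and 135, 107, 106, 117 and 65.3 cpm in the DJ-1-/- libraries. As for Gch1, DJ-1+/+ mouse 4 and DJ-1-/- mouse 5 were the lowest, and the remaining libraries overlapped. The log2 fold change was 0.25 (standard error 0.24, 95% interval −0.26 to 0.75). It was −0.027 without DJ-1+/+ mouse 4, so its direction rested on that library.

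Among the receptors, Drd2 (ENSMUSG00000032259, chr9:49340627-49408177, plus strand) encodes the D2 autoreceptor of dopamine neurons and is also abundant in striatal neurons. It had 23.8, 58.0, 45.4 and 65.5 cpm in the DJ-1+/+ and 54.1, 60.1, 67.1, 68.2 and 41.9 cpm in the DJ-1-/- libraries. Here DJ-1+/+ mouse 4, the lowest for Th, was the highest of its genotype, and DJ-1+/+ mouse 1 was the lowest. The log2 fold change was 0.27 (standard error 0.22, 95% interval −0.20 to 0.74). It was 0.047 without DJ-1+/+ mouse 1 and 0.45 without DJ-1+/+ mouse 4.

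Chrna6 and Chrnb3 encode nicotinic acetylcholine receptor subunits that assemble together on dopamine terminals, and they are neighbours on chromosome 8, with Chrnb3 at 27368711 to 27399730 on the plus strand and Chrna6 at 27403212 to 27413944 on the minus strand, 3481 bases apart. Chrna6 (ENSMUSG00000031491) had 6, 39, 9 and 10 counts in the DJ-1+/+ libraries and 23, 52, 40, 32 and 26 in the DJ-1-/- libraries, with DJ-1+/+ mouse 2 again among the DJ-1-/- mice. The means were 18.3 ± 17.4 cpm (SD, n = 4) and 34.01 ± 10.3 cpm (SD, n = 5). The ratio was 1.85 with a 95% interval of 1.02 to 3.34 (log2 fold change 0.89, standard error 0.40, edgeR unadjusted p = 0.0425, exact permutation p = 0.127).

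Chrnb3 (ENSMUSG00000031492) had the fewest counts of the members, with 5, 11, 3 and 8 in the DJ-1+/+ and 2, 13, 6, 12 and 23 in the DJ-1-/- libraries. Its DJ-1+/+ values lay within the DJ-1-/- range, with the lowest and the highest library both DJ-1-/-. Its log2 fold change was 0.50 (standard error 0.52, 95% interval −0.61 to 1.61), and its precision was limited by these low counts. Without DJ-1-/- mouse 5 it was 0.061.

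Dlk1 (ENSMUSG00000040856, chr12:109452823-109463336, plus strand), an imprinted gene that encodes a transmembrane protein of the Notch ligand family and is expressed by midbrain dopamine neurons, had 158, 235, 133 and 129 cpm in the DJ-1+/+ libraries. In the DJ-1-/- libraries it had 181, 192, 202, 230 and 140 cpm. DJ-1+/+ mouse 2 was the highest of all mice, DJ-1+/+ mice 3 and 4 were the lowest, and the groups overlapped. The log2 fold change was 0.21 (standard error 0.16, 95% interval −0.12 to 0.54), and it was 0.43 without DJ-1+/+ mouse 2 (edgeR unadjusted p = 0.00508) and 0.10 without DJ-1+/+ mouse 4.

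Over the list, no member passed the test at an adjusted p under 0.05 in edgeR, against 0.00552% of all genes tested, which is Park7 alone. At an unadjusted p under 0.05, 3 of 9 members (Th, Slc6a3, Chrna6) were called, all with the higher mean in DJ-1-/-, where 2.83% of all genes were called and 1.57% with the higher mean in DJ-1-/-. With DESeq2 this count was 1 (Chrna6, unadjusted p = 0.0307) and no adjusted p was under 0.05. The log2 fold change was above 0 for 9 of 9 members, with a median of 0.43, while it was above 0 for 51.9% of all genes, with a median of 0.0079. By exact permutation of cpm 0 of 9 members had a p under 0.05, where 3.67% of all genes did and 2.01% with the higher mean in DJ-1-/-. No member was without overlap between genotypes, and 1.25% of all genes were. At least 3 DJ-1+/+ libraries lay below every DJ-1-/- library for 4 members (Th, Ddc, Slc6a3, Chrna6) and for 4.62% of all genes. As these members varied together over the libraries, their counts are not independent of each other. The list was also chosen with earlier results of these data known, so the shares of all genes are set beside it as a description only.

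The unadjusted calls depended on single libraries. Without DJ-1+/+ mouse 2 the log2 fold change of Th was 1.04 (edgeR adjusted p = 0.401) and that of Chrna6 was 1.80 (adjusted p = 0.251), and 5 members had an unadjusted p under 0.05. No member had one without DJ-1+/+ mouse 3 or 4 or without DJ-1-/- mouse 2 or 4, and 1 member had one without DJ-1+/+ mouse 1 (Th) or DJ-1-/- mouse 3 (Ddc). Without DJ-1-/- mouse 1 the same 3 genes were called as in all libraries, and without DJ-1-/- mouse 5 these and Ddc (unadjusted p = 0.0336). The share of all genes called on leaving out each library is not given beside these counts, so they describe the members only. DJ-1+/+ mice 1 and 4 also stood apart in markers of neighbouring tissue. The summed level of 6 cerebellar neuron markers was 941 cpm in DJ-1+/+ mouse 1 and at most 413 cpm in any other library, and that of 8 choroid plexus markers was 296 and 659 cpm in DJ-1+/+ mice 1 and 4 and at most 177 cpm in the others. With both mice left out, the log2 fold changes of Th, Slc6a3 and Chrna6 were 0.32, 0.39 and 0.31, with unadjusted p between 0.226 and 0.455. In the 6 libraries with Xist, the log2 fold changes were 0.39, 0.37 and 0.40 in the same order, with unadjusted p between 0.129 and 0.337. Both settings kept only DJ-1+/+ mice 2 and 3, against 5 and 4 DJ-1-/- mice. The markers set apart the same DJ-1+/+ mice that lacked Xist, so tissue content and sex could not be told apart within that genotype. DJ-1-/- mouse 5 also lacked Xist, with 384 cpm of the cerebellar and 113 cpm of the choroid plexus markers. With Xist as covariate in all libraries, the log2 fold changes of Th, Slc6a3 and Chrna6 were 0.46, 0.72 and 0.64 (edgeR unadjusted p = 0.0595, 0.0507 and 0.0876). What part each had in the differences was not tested beyond these values.

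**Figure D2:**
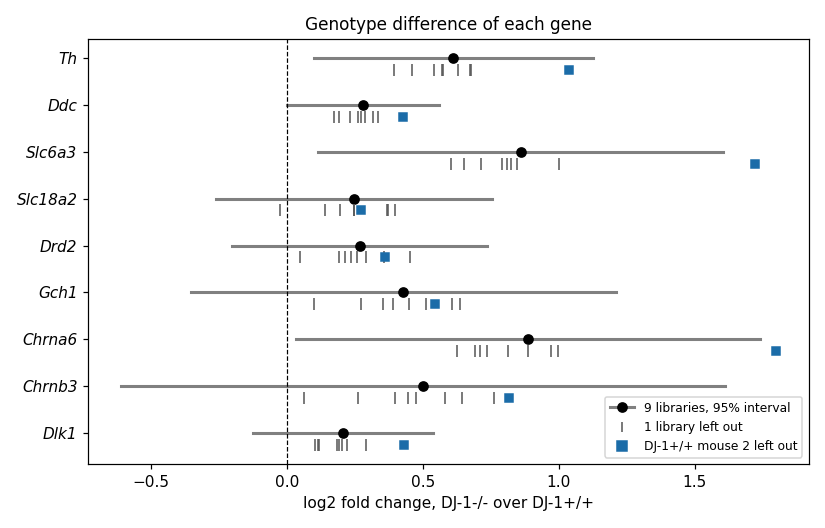
Log2 fold change of each gene, DJ-1-/- over DJ-1+/+ (horizontal axis, dashed line at 0), with dots and grey bars for the estimate and 95% interval of edgeR's fit to the 9 libraries. Ticks below each bar are the estimates with 1 library left out, and blue squares those without DJ-1+/+ mouse 2, at 1.72 for Slc6a3 and 1.80 for Chrna6.

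The members did not vary as 1 block. Of the 36 pairs, 32 had a positive Pearson r of log2(cpm + 1) over the 9 libraries, with a median of 0.54 and a range of −0.44 to 0.98, and 7 pairs had an adjusted p under 0.05 by exact permutation (6 by Spearman's rho). The share among pairs of other genes is not given, so these counts describe the members and do not set them apart from other genes. Th varied with Slc6a3 (r = 0.92, exact permutation p = 0.000799, adjusted p = 0.0110, rho = 0.85, exact permutation p = 0.00607, adjusted p = 0.0364). This r was 0.86 within genotypes, and 0.86 without the 2 libraries farthest from the median of Th (DJ-1+/+ mice 3 and 4). Slc6a3 varied with Chrna6 (r = 0.93, exact permutation p = 0.00133, adjusted p = 0.0120, rho = 0.93, exact permutation p = 0.000750, adjusted p = 0.0135), with 0.88 within genotypes and 0.94 without the 2 farthest libraries. Th varied with Dlk1 as well (r = 0.90, exact permutation p = 0.000920, adjusted p = 0.0110, rho = 0.97, exact permutation p = 0.000165, adjusted p = 0.00595), with 0.91 within genotypes and 0.86 without the 2 farthest libraries.

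The highest r of all pairs was that of Slc18a2 with Gch1, at 0.98 (exact permutation p = 0.000656, adjusted p = 0.0110, rho = 0.82, exact permutation p = 0.0108, adjusted p = 0.0554). It was 0.98 within genotypes and 0.71 without DJ-1+/+ mouse 4 and DJ-1-/- mouse 5, the farthest libraries, so its size rested in part on those mice. With Slc6a3, in contrast, r was 0.23 for Slc18a2 (exact permutation p = 0.620, adjusted p = 0.677, rho = −0.12, exact permutation p = 0.776, adjusted p = 0.798), 0.046 within genotypes and −0.43 without the 2 farthest libraries. Chrna6 and Chrnb3, although neighbours, had r = 0.40 (exact permutation p = 0.289, adjusted p = 0.434, rho = 0.57, exact permutation p = 0.121, adjusted p = 0.289), 0.39 within genotypes and 0.17 without the 2 farthest libraries.

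**Figure D3:**
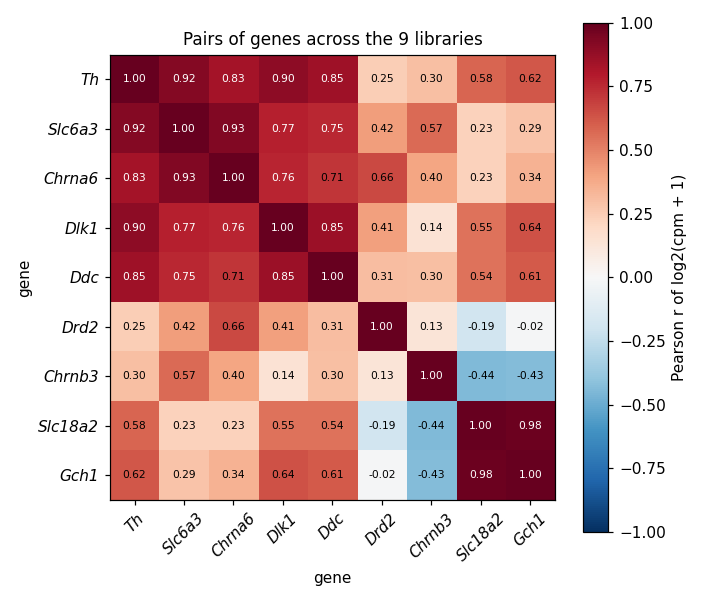
Pearson r of log2(cpm + 1) over the 9 libraries for every pair of the 9 genes (both axes list the genes, colour from −1 to 1, value printed in each cell). Th, Slc6a3, Chrna6, Dlk1 and Ddc form a corner of values from 0.71 to 0.93, and Slc18a2 with Gch1 stands at 0.98.

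Among 12740 genes with a mean of at least 10 cpm, the genes outside the list whose log2(cpm + 1) was most like that of Th over the 9 libraries were Mogs (r = 0.97), Slc26a11 (0.93), Bdh2 (0.93), Gm42635 (0.92) and Adra1a (0.92). These are given as a description, since the highest of so many correlations over 9 libraries are large by selection. In the same ranking Slc6a3 was at rank 6, Dlk1 at 15, Ddc at 65 and Chrna6 at 83. Gch1 was at rank 683, Slc18a2 at 893 and Drd2 at 3777.

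The libraries with the lowest Slc18a2 and Gch1 were also those with the lowest summed level of serotonergic neuron markers, of which Tph2, Slc6a4 and Fev were at or near 0 there and Gata3 and Htr1a were not. Tph2, the brain enzyme of serotonin synthesis, had 81, 37, 87 and 2 counts in the DJ-1+/+ and 111, 44, 72, 100 and 0 in the DJ-1-/- libraries. The serotonin transporter Slc6a4 had 68, 42, 98 and 0 counts and 123, 52, 49, 97 and 0 counts, so both were at or near 0 in DJ-1+/+ mouse 4 and DJ-1-/- mouse 5. Fev had 1 and 0 counts in those mice and 5 to 30 in the others, whereas Gata3, which GABA neurons of the midbrain also express, had 42 and 84 counts (59 to 105 in the others) and Htr1a had 11 in each (14 to 39 in the others). The summed level of the 5 serotonergic markers (with Fev, Gata3 and Htr1a) was 63.2 to 351 cpm in the DJ-1+/+ libraries and 92.6 to 379 cpm in the others, and 0 of 5 had an unadjusted p under 0.05. Dbh, which turns dopamine into noradrenaline, had 44, 3, 4 and 0 counts and 39, 37, 13, 22 and 1 counts. The 4 noradrenergic markers summed to 2.26 to 179 cpm in the wild-type and 0.974 to 176 cpm in the knockout libraries, with the lowest value of each genotype in the same 2 mice.

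Slc6a3 was not ordered as these markers were, as DJ-1-/- mouse 5 had 102 cpm of Slc6a3 with 0 counts of Tph2, and DJ-1+/+ mouse 3 had 23.3 cpm with 87 counts. Th was lowest of each genotype in the same 2 mice, with 33.9 cpm in DJ-1+/+ mouse 4 and 78.0 cpm in DJ-1-/- mouse 5, the latter close to the 80.1 cpm of DJ-1-/- mouse 1. Gpr151, a marker of the habenula, showed the reverse of the serotonergic pattern, with 36 counts in DJ-1+/+ mouse 4, 46 in DJ-1-/- mouse 5 and at most 4 in the others. Without these 2 mice the log2 fold change was 0.10 for Slc18a2, 0.31 for Gch1, 0.54 for Drd2 (unadjusted p = 0.0238), 0.46 for Th (unadjusted p = 0.0461) and 0.64 for Slc6a3 (unadjusted p = 0.0960), with edgeR adjusted p = 0.999 for each. The part of serotonergic and noradrenergic neurons in the levels of Slc18a2, Gch1 and Ddc was not tested.

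**Figure D4:**
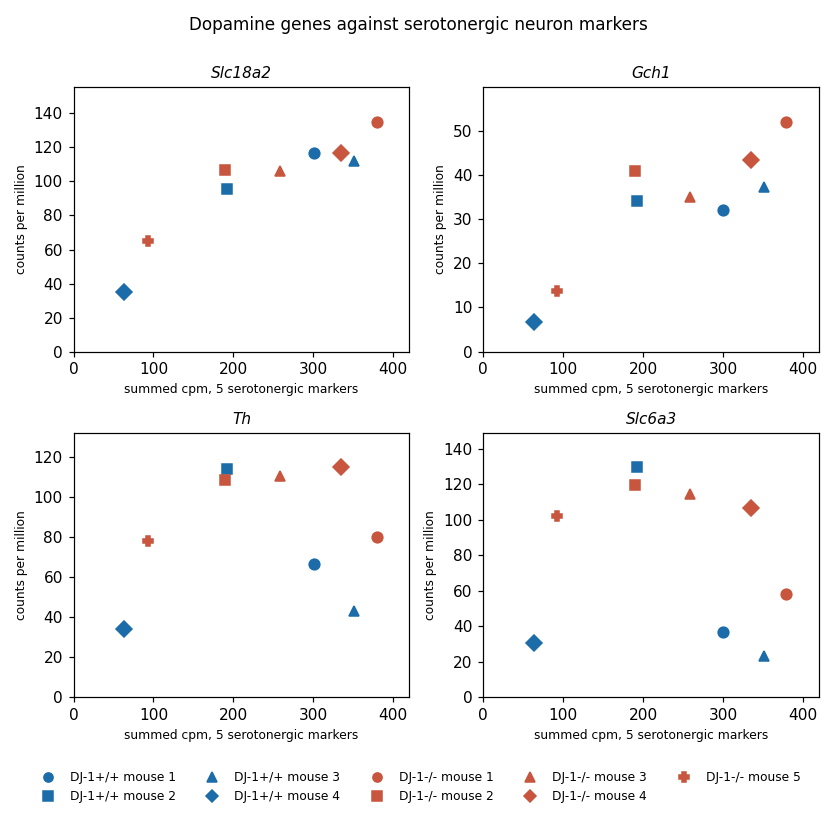
Cpm of Slc18a2, Gch1, Th and Slc6a3 (vertical axes, from 0) against the summed cpm of the 5 serotonergic markers (horizontal axis), 1 symbol per mouse. DJ-1+/+ mouse 4 and DJ-1-/- mouse 5, at 63.2 and 92.6 cpm of the markers, are lowest for Slc18a2 and Gch1, whereas Slc6a3 is near 102 cpm in the latter.

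To compare each member between libraries without the use of library size, it was expressed as counts per 100 counts of Th in the same library. Whether the flat range of counts bears on these ratios was not tested. Th is the denominator, so its own difference (log2 fold change 0.61) lowers every ratio in DJ-1-/-. Dlk1 had 238, 207, 308 and 380 per 100 Th counts in the DJ-1+/+ and 226, 177, 183, 201 and 180 in the DJ-1-/- libraries, and the groups overlapped through DJ-1-/- mouse 1. The means were 283 ± 77.2 (SD, n = 4) and 194 ± 20.5 (SD, n = 5), with a two-sided exact permutation p = 0.0317, the lowest of the 8 ratios tested. By this measure 10.2% of all genes were lower in DJ-1-/- at an exact p under 0.05 and 0.0938% were higher, so a value of this size was common among genes scaled to Th. On leaving out each library in turn, p was under 0.05 in the tests without DJ-1+/+ mouse 2 (0.0357) and without DJ-1-/- mouse 1 (0.0286) and at 0.0571 or 0.0714 in the other 7.

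Per 100 Th counts, Slc6a3 had 55.4, 114, 54.1 and 90.0 in DJ-1+/+ and 72.5, 110, 104, 92.8 and 131 in DJ-1-/- mice (exact permutation p = 0.222). The ratio thus varied by library in both genotypes, and DJ-1+/+ mice 2 and 4 were among the DJ-1-/- mice. Drd2 ran from 53.8 to 67.5 per 100 Th counts in the DJ-1-/- mice but from 35.7 to 193 in the DJ-1+/+ mice, with the highest value in DJ-1+/+ mouse 4 (exact permutation p = 0.333). That library also had the highest sum of the 6 striatal markers, 414 cpm against 285 to 359 cpm in the others. Ddc, Slc18a2, Gch1, Chrna6 and Chrnb3 had exact permutation p between 0.143 and 0.667.

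Of 18 other genes of midbrain dopamine neurons, 4 had an unadjusted p under 0.05, all with the higher mean in DJ-1-/-, and none an adjusted p under 0.05 in edgeR (median log2 fold change 0.13). Among all genes tested 2.83% had such an unadjusted p, 1.57% with the higher mean in DJ-1-/-. No gene of the 4 pathway lists, these 18 included, had one with DESeq2, with at least 10 counts required in 4 libraries, with Xist as covariate, or without DJ-1+/+ mouse 3, DJ-1-/- mouse 1, 2 or 4, or DJ-1+/+ mice 1 and 4 together. Ret, the signalling receptor for GDNF family ligands, had 69, 104, 70 and 75 counts in the DJ-1+/+ and 107, 138, 106, 105 and 98 in the DJ-1-/- libraries (log2 fold change 0.25, standard error 0.11). The transcription factor Foxa1 had 3, 9, 1 and 3 counts and 8, 12, 7, 10 and 10 counts (0.99, standard error 0.46). It was at or below the floor of 3 counts in DJ-1+/+ mice 1, 3 and 4, which limits this value. Ret and Foxa1 showed the order seen for Th, with DJ-1+/+ mouse 2 among the DJ-1-/- mice in cpm.

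The neurotensin receptor Ntsr1 had 4, 16, 10 and 10 counts in the DJ-1+/+ and 19, 28, 14, 21 and 14 in the DJ-1-/- libraries (log2 fold change 0.71, standard error 0.33). Pitx3, a transcription factor of these neurons and the last of the 4 genes called, had 1, 1, 0 and 0 counts and 3, 3, 1, 6 and 1 counts. These were too few for a fold change. Otx2 had the lowest log2 fold change of the list, −0.33 (standard error 0.50).

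Of 7 further enzymes and regulators of tetrahydrobiopterin, none had an unadjusted p under 0.05 (median log2 fold change 0.12), with Pts lowest at −0.07 and Gchfr, the feedback regulator of Gch1, highest at 0.53. Of the other dopamine receptors, Drd1 and Drd5 were tested, with log2 fold changes of −0.27 and 0.45, and Drd3 and Drd4 were too low. Of 7 other nicotinic subunits, 6 were tested and none had an unadjusted p under 0.05 (median −0.08), from Chrna3 at −0.41 to Chrna5 at 0.51.

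In the remaining marker lists no gene had an adjusted p under 0.05 in edgeR. At an unadjusted p under 0.05, 4 of 6 cerebellar markers and 6 of 7 tested choroid plexus markers had the lower mean in DJ-1-/-, with lowest log2 fold changes of −6.57 for Gabra6 and −3.27 for Folr1, and Gabra6 had 102 counts in DJ-1+/+ mouse 1 and at most 2 elsewhere. The same direction held for 1 of 6 striatal markers (Ppp1r1b, −0.32) and 1 of 6 hypothalamic markers (Agrp, −2.45). Agrp had 51 counts in DJ-1+/+ mouse 2 and at most 11 in any other library, so its value rested on that mouse. The hypothalamic sum was highest in DJ-1+/+ mouse 2, at 865 cpm, which was also the DJ-1+/+ mouse with the highest Th and Slc6a3, and it was 695 cpm in DJ-1-/- mouse 3 and at most 389 cpm in the others. Hypothalamic neurons include dopamine neurons with Th, and their part was not tested. No gene was called in the noradrenergic list, the habenula and interpeduncular list, or those of GABA neurons, astrocytes, oligodendrocytes and microglia, with medians of 0.72, −0.031, 0.039, −0.0074, −0.017 and 0.044. Of the 6 pan-neuronal markers, 1 (Eno2, 0.14) was called, and the list summed to 1604 to 1797 cpm in the wild-type and 1647 to 1768 cpm in the knockout libraries.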

How the data were processed

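RNA was extracted from midbrain of 4 DJ-1+/+ and 5 DJ-1-/- mice, and QuantSeq 3′ FWD libraries were sequenced. The authors deposited, for each mouse, whole-number UMI counts per Ensembl gene without normalization. The submitters' processing notes name GRCm38, fastp 0.20.0, STAR 2.7.3a, Subread, featureCounts 2.0.0 and UMI-tools 1.0.0. The annotation release and the strand setting are not given in the sources used here, so reads of antisense genes could fall on a member.

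Counts were joined by identifier, with 0 for an unlisted gene, and symbols and positions were taken from GENCODE M21. Genes whose counts summed to 10 or more were fitted with edgeR 4.0.16 (R 4.3.3) after TMM normalization, by estimateDisp, glmQLFit and glmQLFTest, with genotype as the only term and Benjamini-Hochberg adjustment over all genes tested. The standard error was the size of the log2 fold change divided by the square root of F. Cpm are counts per 1000000 counts of the library. Means were compared by two-sided exact permutation over the 126 splits, the smaller tail doubled, and correlations over all orders of the 9 libraries.

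Members and lists were chosen with earlier results of these data known. The genes named are Park7, the members, the genes of each list with an unadjusted p under 0.05 or an extreme log2 fold change, markers of other cells whose level is given beside a result, and the 5 genes most like Th. Tph2, Slc6a4, Dbh, Gpr151 and Xist were named after their values were seen. Alternatives were RLE and library-total scaling, DESeq2 1.42.0, other count filters, Xist as covariate, a replicate block, counts thinned to 841974 per library, log2 or TMM-scaled cpm, another denominator than Th, and libraries left out. The scripts were tested on simulated data. The labels do not say whether replicates shared a litter or batch, so p-values measure the spread between these samples, which may in part be technical.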

Additional observations from a re-analysis of the deposited data

Results flagged for a closer look

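Of 66 groups of 4 or 5 libraries examined, 7 held a library set far apart from its group by Dixon's criterion, where chance gives about 1 in 20, or 3.3. Among the DJ-1+/+ mice, mouse 2 stood above the others for Slc6a3, with 130 cpm against 23.3 to 36.8, and for Chrna6, with 44.3 cpm against 7.13 to 11.3. DJ-1+/+ mouse 4 stood below the others for Gch1, with 6.77 cpm against 32.1 to 37.2, and for the summed tetrahydrobiopterin enzymes, with 449 cpm against 517 to 529. The same mouse stood above the others for Chrnb3 per 100 Th counts, with 26.7 against 8.11 to 11, a ratio of 8 to 30 counts. Among the DJ-1-/- mice, mouse 1 stood below the others for Slc6a3, with 58.1 cpm against 102 to 119, and above them for Slc18a2 per 100 Th counts, with 169 against 83.8 to 102.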

How the results depend on the processing

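Park7 kept its direction and its adjusted call under all 20 alternatives. The count of 3 members with an unadjusted p under 0.05 was 1 with DESeq2, 5 with no filter on low counts, 0 with Xist as covariate, 0 without DJ-1+/+ mice 1 and 4, 0 in the 6 libraries with Xist alone, and 0 to 5 with 1 library left out. The count of 0 members with an adjusted p under 0.05 was 2 with no filter (Th, adjusted p = 0.0213, and Slc6a3, 0.00156), where edgeR called 36 genes in all against 1, and 802 against 513 before adjustment, and it was 0 to 1 with 1 library left out. By exact permutation the count of members was 0, and 0 to 4 with 1 library left out, with 4 without DJ-1+/+ mouse 2 (Th, Ddc, Slc6a3 and Chrna6). The share of all genes in the exact tests with a library left out is not given. DESeq2 called 235 genes before adjustment and the filter of 10 counts in 4 libraries 345, and edgeR called 338 without DJ-1-/- mouse 2. The adjusted count over all genes was 2 without DJ-1+/+ mouse 2 or 3 or without DJ-1+/+ mouse 4 and DJ-1-/- mouse 5, and 3 in the libraries with Xist. Among genes with an unadjusted p under 0.05, 55.6% had the higher mean in DJ-1-/-, 47.8% with RLE size factors and 45.1% with DESeq2.

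The replicate numbers were not found to pair the mice, as the deviations of same-numbered libraries correlated at 0.29, 0.04, −0.12 and −0.19. With the replicate block 7 members had an unadjusted p under 0.05 and none an adjusted one. Over all genes 571 had an unadjusted p under 0.05 there, and 8 an adjusted one. The log2 fold change of Chrnb3 was 0.033 with the block against 0.50 in the main fit. No DJ-1+/+ mouse has the number of DJ-1-/- mouse 5, so with the block that mouse did not bear on the genotype difference. Of the genes in the 4 pathway lists, 4 had an unadjusted p under 0.05, and 2 did with RLE, 0 with DESeq2, 0 with the stricter filter, 0 with Xist as covariate, 1 after thinning, 0 without DJ-1+/+ mice 1 and 4, and 0 to 6 with 1 library left out. This count was 2 without DJ-1+/+ mouse 4 and DJ-1-/- mouse 5, and 2 in the 6 libraries with Xist, both chosen after seeing the data. Leaving out DJ-1+/+ mice 1 and 4 was likewise defined by their marker levels in these data.

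Slc18a2 reversed without DJ-1+/+ mouse 4, with log2 fold changes of −0.027 to 0.40 and differences of −1.85 to 26.5 cpm over the 9 libraries left out in turn. Of the ratios to Th, 1 had an exact p under 0.05, and 0 to 2 did with 1 library left out. The exact test could not reach 0.05 in the libraries with Xist or without DJ-1+/+ mice 1 and 4. Nor could it without DJ-1+/+ mouse 4 and DJ-1-/- mouse 5, so counts of 0 there were fixed in advance. Per 100 pan-neuronal counts, with all libraries, the count was 0. With that denominator the difference turned positive for Ddc (1.59), Slc18a2 (0.963), Drd2 (0.579), Gch1 (0.554), Chrnb3 (0.181) and Dlk1 (1.40). Per 100 Th counts it turned positive for Gch1 without DJ-1+/+ mouse 3 (5.25, range −16.9 to 5.25), and for Chrnb3 without DJ-1+/+ mouse 4 (2.37, range −6.22 to 2.37), DJ-1-/- mouse 1 (0.347) or DJ-1+/+ mice 1 and 4 (2.16). The causes were not tested. With 3 against 5 mice the exact test cannot go below 0.0357, and with 3 against 4 not below 0.0571. The limit is 0.0952 with 2 against 5 mice and 0.133 with 2 against 4. Depth limits genes such as Chrnb3, Pitx3, Drd3 and Drd4, the last pair too low to test.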
